A study of Mus musculus with 27 samples.

Results

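The vascular endothelial growth factor (VEGF) and angiopoietin ligands and their receptors were followed in mouse uterus through 10 genes: the ligands Vegfa, Vegfb, Vegfc and Pgf, their receptors Kdr, Flt1 and Nrp1, the ligands Angpt1 and Angpt2, and their receptor Tek. Members were the probes that carry one of these 10 names in the scanner files, 22 probes of 41174 on the array. Of these, 20 passed the filter on dim probes (the scanner calls them well above background throughout 1 or more groups), and each of the 10 genes kept at least 1 probe among the 21861 genes tested. For each gene the brightest kept probe stands for the gene, and other probes are described where they bear on its values.

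Whole uterus was taken from ovariectomised female mice 8 weeks old of 3 strains, C57BL/6 (B6), C3H/HeJ (C3H) and the hybrid (B6 × C3H)F1 (F1). All 9 groups had their ovaries removed and rested for 1 to 2 weeks. A single intraperitoneal dose of 40.0 µg per kg of 17β-estradiol (E2, the main ovarian estrogen), carried in 0.1 ml of saline with 0.25% ethanol, was given 2 h or 24 h before collection, and the third group of each strain received the ethanol and saline vehicle, for which the labels give no time. Each group has 3 arrays, 27 in all. The labels name 3 animals per treatment group without tying an array to an animal, so the p-values measure the spread between these samples, which may be technical.

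VEGF-A is a secreted factor that drives the growth and the leakiness of blood vessels by activating KDR (VEGFR2) on endothelial cells. FLT1 (VEGFR1) binds VEGF-A, VEGF-B and placental growth factor (PGF) tightly, signals weakly and can hold ligand away from KDR, while neuropilin 1 (NRP1) is a co-receptor. Angiopoietin 1 from cells around the vessel activates TEK (TIE2) and keeps vessels tight, and angiopoietin 2, made by endothelium, is known mainly as its context-dependent antagonist. In the uterus, estrogen is known to bring on fast swelling of the tissue, with leakage from small vessels, and later growth.

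Every level below is a log2 processed intensity minus the 75th percentile of its array, so 0 is that percentile. Levels of different probes are not compared with each other. A call needs a p under 0.05 after Benjamini-Hochberg adjustment over the 21861 genes in 1 limma fit of the 9 group means, and errors beside differences are standard errors (SE). The 75th percentile of the arrays lay between 1210 and 1579 intensity units, and 72.4% to 79.4% of probes were well above background on an array. All 10 probes that stand for the genes were well above background on all 27 arrays. The arrays that stood apart, by the number of genes further than 1 log2 unit from the mean of the group, were 3: C3H E2 24 h replicate 1 with 490 genes, B6 vehicle replicate 1 with 431 and C3H E2 2 h replicate 1 with 296, against 80 to 202 on the other arrays. Results that change without these 3 arrays are given both ways. Markers of the main uterine tissues were measured, 9 of 9 for smooth muscle, 9 of 9 for stroma and 12 of 12 for epithelium.

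The probes are shown by their first 30 of 60 bases where several probes of a gene disagree and for Pgf, the gene with the largest change. Coordinates are those of the scanner files on mm7, and exon annotation of that build was not used here. Of the 3 Vegfa probes, 2 are shown, both on chromosome 17, minus strand, and designed on RefSeq mRNA: A_52_P638895 at chr17:44146842-44146901, which stands for the gene, and A_51_P482552 at chr17:44147967-44148026, which lies 1.125 kb away.
Vegfa A_52_P638895: cagatcggtgacagtcactagcttgtcctg
Vegfa A_51_P482552: actggattcgccattttcttatatctgctg

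For Flt1 (minus strand), Nrp1 and Tek (plus strand), the probe that stands for the gene was designed on RefSeq mRNA. Beside it is shown a probe that disagrees with it, was designed on a single cDNA and lies far from it. Further probes of Flt1 and Nrp1 that differ from the one that stands for the gene are described with those genes. The pairs are Flt1 A_51_P398723 at chr5:146456619-146456678 and A_52_P307922 at chr5:146532609-146532668, 75.99 kb apart, Nrp1 A_51_P469285 at chr8:127111352-127111411 and A_52_P174942 at chr8:126968711-126968770, 142.641 kb apart, and Tek A_51_P130374 at chr4:94266776-94266835 and A_52_P234087 at chr4:94134402-94134461, 132.374 kb apart. The single Pgf probe, A_51_P318381, lies at chr12:83167223-83169225 on the minus strand, and its 60 bases span 2003 bases of the genome, so it crosses an intron.
Flt1 A_51_P398723: aagtaaagaaaagctatcgggattctctgg
Flt1 A_52_P307922: caccaagctttgatggcattcaaagatgtc
Nrp1 A_51_P469285: ttgtggatggtgtaaagttgaaaaaagata
Nrp1 A_52_P174942: gtaaaccgtctgtgatcagtctgaagtatg
Tek A_51_P130374: ctctaatgtgactgtatatactgctcggag
Tek A_52_P234087: agttctcatagaacttagcagtgttacccc
Pgf A_51_P318381: tagaaactcacagactgaggaaccccaccc

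The 3 members that rose most at 2 h in every strain, Pgf, Vegfa and Nrp1, are also shown by the 250 bases before a RefSeq start (GRCm38.p6). Where a gene has several starts, the most upstream was taken. The windows are Vegfa at chr17:46032378-46032627 on the minus strand, Pgf at chr12:85177314-85177563 on the minus strand and Nrp1 at chr8:128358823-128359072 on the plus strand. Capitals mark GGGCGG (the GC box) and GGTCA (a single arm of an estrogen response element), each on either strand.
Vegfa: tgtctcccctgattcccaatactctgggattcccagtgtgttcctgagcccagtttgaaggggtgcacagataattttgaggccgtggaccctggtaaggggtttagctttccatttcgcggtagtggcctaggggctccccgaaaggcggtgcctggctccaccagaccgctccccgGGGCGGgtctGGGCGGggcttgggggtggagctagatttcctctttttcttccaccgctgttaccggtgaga
Pgf: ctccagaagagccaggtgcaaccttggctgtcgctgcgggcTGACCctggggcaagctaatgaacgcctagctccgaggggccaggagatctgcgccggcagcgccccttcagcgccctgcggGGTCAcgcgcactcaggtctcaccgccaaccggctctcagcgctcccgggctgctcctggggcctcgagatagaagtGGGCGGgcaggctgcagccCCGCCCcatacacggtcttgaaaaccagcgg
Nrp1: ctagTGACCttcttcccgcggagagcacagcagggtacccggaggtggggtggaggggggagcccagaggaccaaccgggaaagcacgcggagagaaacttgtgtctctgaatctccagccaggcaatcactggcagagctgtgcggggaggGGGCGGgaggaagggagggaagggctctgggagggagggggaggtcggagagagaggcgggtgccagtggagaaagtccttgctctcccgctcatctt

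The Vegfa window shown holds 2 GC boxes and no GGTCA, the Pgf window 2 GC boxes and 2 GGTCA, and the Nrp1 window 1 of each. A second Pgf window, at chr12:85175983-85176232, holds neither. A second Vegfa window, at chr17:46025164-46025413, holds 1 GC box and no GGTCA. Among the other members with an entry, the Vegfb window holds 4 GC boxes and 2 GGTCA, and the Kdr window 2 GC boxes and 1 GGTCA. The Tek window holds 1 GGTCA and no GC box. Those of Flt1 and Vegfc hold 3 and 2 GC boxes and no GGTCA. Over 32817 windows of the same length, 32.7% hold GGGCGG and 35.2% hold GGTCA. The GC content was 59.2%, 68.4% and 64.4% in the Vegfa, Pgf and Nrp1 windows shown, against a median of 52.4% over all windows. The whole element, GGTCA followed after any 3 bases by TGACC, is in 0.064% of windows and in none of the 10 windows of the 8 members with an entry. TGANTCA, the AP-1 site, is in 6.75% of windows and in none of the members' windows. ACGTG, the core of the hypoxia response element, is in 16.6% of windows and among the members only in the second Vegfa window. A match is a run of letters in these windows and was not tested for binding.

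At 2 h after E2 the ligands moved in opposite directions. Pgf, Vegfa, Nrp1 and Angpt2 rose in all 3 strains, while Vegfb, Vegfc and Tek fell in all 3. B6 had 4 of the 10 genes higher and 3 lower, C3H had 4 and 4, and F1 had 4 and 3. The shares of all genes tested were 22.7% higher and 34% lower for B6, 23.9% higher and 37.1% lower for C3H, and 22.8% higher and 37% lower for F1. Called in the same direction in all 3 strains were 4 members higher and 3 lower, against 17.8% and 28.2% of all genes. The share of members called lower was thus near that of all genes, and the median member difference, -0.10 in B6, -0.10 in C3H and -0.09 in F1, was near the median of all genes (-0.09, -0.13 and -0.12).

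**Figure D1:**
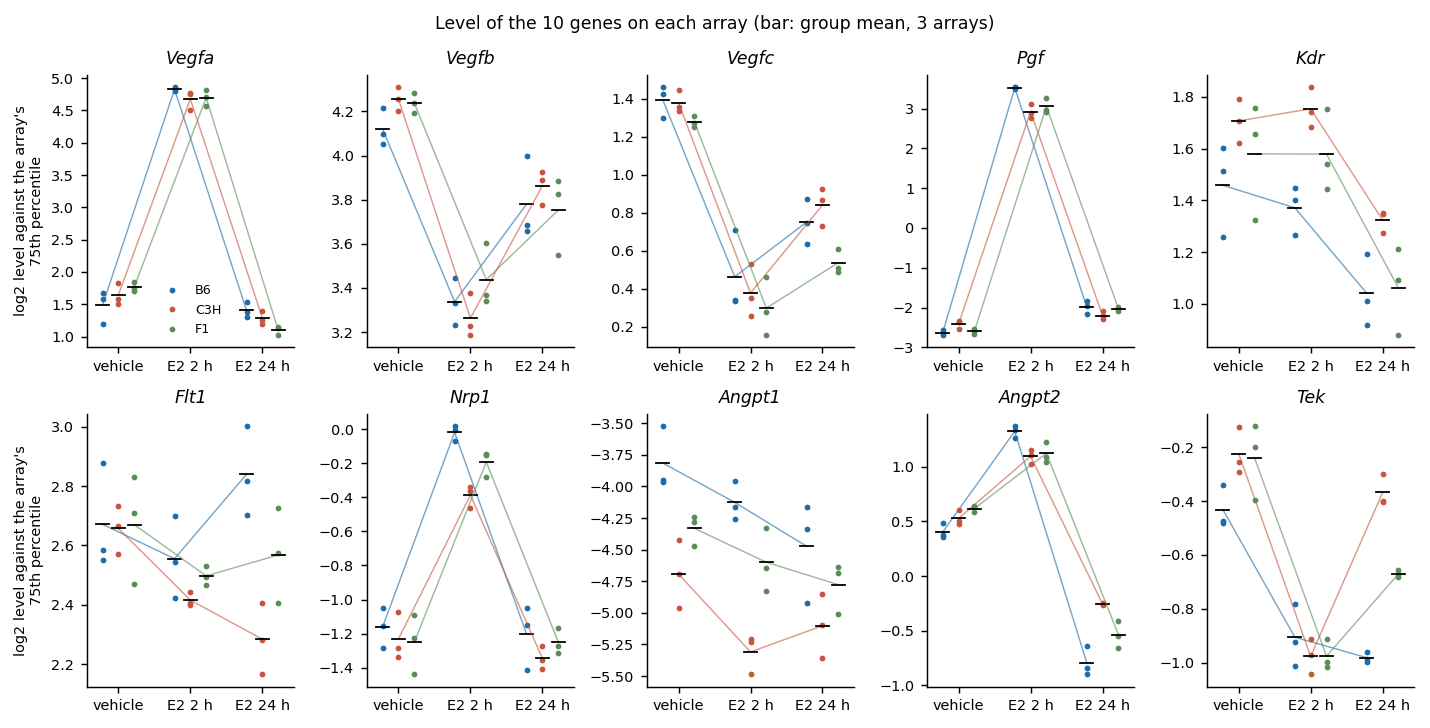
Log2 level against the array's 75th percentile (vertical axis, a separate range for each gene) of the 10 genes in vehicle, E2 2 h and E2 24 h uteri, with B6 blue, C3H red and F1 green. Points are single arrays, bars are means of 3 arrays and lines join the means of a strain; Pgf and Vegfa peak at 2 h, Vegfb and Vegfc are lowest there, and Angpt2 is above vehicle at 2 h and below it at 24 h.

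Pgf, a VEGF-family ligand that binds FLT1 and not KDR, showed the largest change of the 10 genes. Pgf on the B6 arrays read -2.69, -2.57 and -2.63 in vehicle, 3.54, 3.54 and 3.49 at 2 h, and -1.97, -2.17 and -1.82 at 24 h. In C3H, Pgf read -2.37, -2.53 and -2.33 in vehicle, 2.90, 3.10 and 2.77 at 2 h, and -2.10, -2.29 and -2.21 at 24 h. For F1 the Pgf readings were -2.53, -2.66 and -2.59 in vehicle, 2.97, 3.27 and 2.92 at 2 h, and -1.99, -2.08 and -2.03 at 24 h. All 9 arrays at 2 h lay far above every other array, and the B6 arrays at 2 h lay above those of C3H and F1. Pgf rose 71.3-fold in B6 (log2 6.15, SE 0.10, adjusted p = 4.12e-20), 40.3-fold in C3H (5.33, adjusted p = 4.29e-19) and 50.1-fold in F1 (5.65, adjusted p = 2.29e-19). By 24 h the log2 difference from the 2 h level was -5.51 in B6, -5.12 in C3H and -5.08 in F1, and Pgf was still above vehicle by 0.64 in B6 (adjusted p = 6.14e-06) and 0.56 in F1 (adjusted p = 3.47e-05). The C3H difference at 24 h was 0.21 (95% interval 0.01 to 0.41, adjusted p = 0.0647) and was not called, although its arrays did not overlap those of the vehicle. In the order of the 9 group means, only the gaps between the 24 h and 2 h groups and between F1 and B6 at 2 h were wider than 2 pooled SD. With normexp background correction the 24 h values of Pgf were 0.33 in B6 (adjusted p = 0.621) and -0.0498 in F1 (adjusted p = 0.908), and neither was called.

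Vegfa followed the same course with a smaller rise. Vegfa on the B6 arrays read 1.19, 1.68 and 1.59 in vehicle, 4.86, 4.83 and 4.80 at 2 h, and 1.38, 1.31 and 1.53 at 24 h. In C3H, Vegfa read 1.59, 1.84 and 1.51, then 4.51, 4.77 and 4.75, then 1.40, 1.20 and 1.26 in the same 3 conditions. F1 gave 1.85, 1.76 and 1.70 in vehicle, 4.57, 4.82 and 4.71 at 2 h, and 1.13, 1.02 and 1.15 at 24 h. The 2 h arrays stood clear of all others, and this was the only gap in the order of the 9 group means wider than 2 pooled SD. Vegfa rose 10.1-fold in B6 (log2 3.34, SE 0.11, adjusted p = 1.3e-15), 8.19-fold in C3H (3.03, adjusted p = 5.78e-15) and 7.62-fold in F1 (2.93, adjusted p = 9.56e-15). A_51_P482552 rose too, by 2.65, 2.58 and 2.51 in B6, C3H and F1, as did the third Vegfa probe, by 3.58, 3.14 and 3.30.

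At 24 h the Vegfa probes disagreed in direction. The probe that stands for the gene overlapped vehicle in B6 (-0.08, SE 0.11, adjusted p = 0.535) and was lower in C3H (-0.36, adjusted p = 0.00754) and F1 (-0.67, adjusted p = 2.03e-05). Without C3H vehicle replicate 2 the C3H value was -0.26 (adjusted p = 0.0583), and without the 3 arrays that stood apart the B6 value was -0.23 (adjusted p = 0.0357). A_51_P482552, printed 10 times on each array, was higher at 24 h in all 3 strains, by 0.97 in B6 (adjusted p = 1.48e-07), 0.60 in C3H (adjusted p = 8.71e-05) and 0.31 in F1 (adjusted p = 0.0193). Its B6 arrays read 0.02, 0.35 and 0.43 in vehicle and 1.21, 1.21 and 1.29 at 24 h. The third probe was higher by 0.63 in B6 (adjusted p = 0.00173) and 0.41 in C3H (adjusted p = 0.0332), and its F1 difference was 0.35 (adjusted p = 0.0634). So 2 of 3 probes read above vehicle and the brightest read at or below it, and no direction at 24 h is given for the gene; counts of members use the brightest probe. Which splice forms of Vegfa each probe reads was not examined.

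Vegfb, a ligand of FLT1, and Vegfc, a ligand of FLT4 and KDR best known for lymphatic vessels, both fell. Vegfb on the B6 arrays read 4.10, 4.21 and 4.05 in vehicle, 3.33, 3.45 and 3.23 at 2 h, and 3.66, 3.68 and 4.00 at 24 h. In C3H, Vegfb read 4.31, 4.20 and 4.26, then 3.38, 3.23 and 3.19, then 3.92, 3.77 and 3.89. F1 gave Vegfb readings of 4.24, 4.19 and 4.28, then 3.60, 3.34 and 3.37, then 3.82, 3.55 and 3.89. In each strain the vehicle arrays were the highest and did not overlap those at either time. Vegfb fell 1.72-fold in B6, 1.99-fold in C3H and 1.74-fold in F1 at 2 h (log2 -0.78, -0.99 and -0.80, SE 0.10, adjusted p = 7.44e-07, 2.23e-08 and 4.54e-07), and it was still below vehicle at 24 h (log2 -0.34, -0.39 and -0.49, adjusted p = 0.00428, 0.00151 and 0.000186). The second Vegfb probe, A_52_P436628, fell by 0.58, 0.60 and 0.52 at 2 h, and at 24 h its differences of -0.08, -0.10 and -0.19 were not called.

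Vegfc on the B6 arrays read 1.43, 1.30 and 1.46 in vehicle, 0.71, 0.34 and 0.34 at 2 h, and 0.63, 0.87 and 0.75 at 24 h. In C3H, Vegfc read 1.33, 1.36 and 1.45, then 0.53, 0.26 and 0.35, then 0.92, 0.87 and 0.73. F1 gave Vegfc readings of 1.31, 1.27 and 1.25, then 0.46, 0.16 and 0.28, then 0.49, 0.51 and 0.61. All vehicle arrays lay above all E2 arrays, and only B6 overlapped between 2 h and 24 h. Vegfc fell by 0.93 in B6, 1.00 in C3H and 0.98 in F1 at 2 h (SE 0.10, adjusted p = 6.47e-08, 2.05e-08 and 2.6e-08). The 24 h differences from vehicle were -0.64, -0.54 and -0.74 (adjusted p = 6.81e-06, 7.03e-05 and 1.19e-06). With slide as a block the B6 difference at 24 h was -0.27 (adjusted p = 0.190). From 2 h to 24 h Vegfc rose by 0.29 in B6, 0.46 in C3H and 0.24 in F1; the B6 call ended without B6 E2 24 h replicate 2 (0.23, adjusted p = 0.0728) or B6 E2 2 h replicate 2 or 3 (0.23, adjusted p = 0.0754 and 0.0737), and the F1 call without F1 E2 24 h replicate 2 or 3 (0.25 and 0.20) or F1 E2 2 h replicate 2 or 3 (0.17 and 0.23).

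Among the VEGF receptors, the co-receptor Nrp1 was the one called at 2 h with the probes that stand for the genes, in all 3 strains. Nrp1 on the B6 arrays read -1.28, -1.15 and -1.05 in vehicle, -0.01, 0.02 and -0.07 at 2 h, and -1.15, -1.05 and -1.41 at 24 h. In C3H, Nrp1 read -1.28, -1.07 and -1.34, then -0.46, -0.36 and -0.34, then -1.35, -1.28 and -1.41. F1 gave Nrp1 readings of -1.44, -1.22 and -1.09, then -0.28, -0.15 and -0.15, then -1.27, -1.31 and -1.16. The 2 h arrays were above all others in each strain, and vehicle and 24 h arrays overlapped. Nrp1 rose 2.21-fold in B6, 1.8-fold in C3H and 2.08-fold in F1 (log2 1.14, 0.84 and 1.06, SE 0.10, adjusted p = 2.25e-09, 1.76e-07 and 5.85e-09). At 24 h its differences from vehicle were -0.04 (95% interval -0.24 to 0.16), -0.11 (-0.31 to 0.09) and 0.00 (-0.20 to 0.20). The other Nrp1 probes went different ways at 24 h: A_52_P174942 was lower in B6 (-0.39, adjusted p = 0.00585) and C3H (-0.88, adjusted p = 1.64e-06) with -0.16 in F1 (adjusted p = 0.234), and A_52_P371237 was higher in F1 (0.39, adjusted p = 0.00166) with 0.03 in B6 (adjusted p = 0.816) and 0.22 in C3H (adjusted p = 0.0636).

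The single-cDNA probe of Nrp1, A_52_P174942, rose further at 2 h, by 2.37 in B6, 1.76 in C3H and 2.07 in F1, and it separated the strains. Its vehicle readings were -2.56, -2.79 and -2.90 for B6, -4.18, -4.44 and -4.39 for C3H, and -3.43, -3.73 and -3.65 for F1. No strain overlapped another, with F1 between its parents. C3H was below B6 (log2 -1.59, SE 0.12, adjusted p = 1.28e-09), F1 was below B6 (-0.85, adjusted p = 5.11e-05) and F1 was above C3H (0.73, adjusted p = 0.000234). The means kept that order at 2 h (-0.38, -1.53 and -2.58 in B6, F1 and C3H) and at 24 h (-3.15, -3.76 and -5.22). The probe that stands for Nrp1 differed in vehicle by -0.07 between C3H and B6 (95% interval -0.27 to 0.13), and the third probe, A_52_P371237, by -0.34 (adjusted p = 0.0155).

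Kdr, the main signalling receptor of VEGF-A, did not pass the test at 2 h and fell at 24 h. Kdr on the B6 arrays read 1.26, 1.51 and 1.60 in vehicle, 1.27, 1.40 and 1.45 at 2 h, and 1.01, 0.92 and 1.19 at 24 h. In C3H, Kdr read 1.62, 1.79 and 1.71, then 1.84, 1.74 and 1.68, then 1.35, 1.27 and 1.35. F1 gave Kdr readings of 1.33, 1.66 and 1.76, then 1.75, 1.44 and 1.54, then 1.21, 0.88 and 1.09. Vehicle and 2 h arrays overlapped in each strain, with differences of -0.09 in B6 (95% interval -0.33 to 0.15), 0.05 in C3H (-0.19 to 0.28) and -0.00 in F1 (-0.24 to 0.24). The 24 h arrays lay below vehicle without overlap, and Kdr fell by 0.42 in B6, 0.38 in C3H and 0.52 in F1 (SE 0.11, adjusted p = 0.0029, 0.00586 and 0.000443). Its second probe was not above background and was not tested.

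Flt1 showed no call in more than 1 strain at either time with the probe that stands for it. Flt1 on the B6 arrays read 2.88, 2.55 and 2.58 in vehicle, 2.70, 2.54 and 2.42 at 2 h, and 2.70, 2.82 and 3.00 at 24 h. In C3H, Flt1 read 2.73, 2.57 and 2.66, then 2.44, 2.40 and 2.40, then 2.41, 2.17 and 2.28. F1 gave Flt1 readings of 2.47, 2.71 and 2.83, then 2.47, 2.53 and 2.49, then 2.73, 2.41 and 2.57. The C3H arrays at both times lay below vehicle without overlap, and the arrays of B6 and F1 overlapped. The 2 h differences were -0.12, -0.24 and -0.17 in B6, C3H and F1 (SE 0.11, adjusted p = 0.378, 0.058 and 0.177). Some alternatives called Flt1 lower at 2 h: in F1 with slide as a block (-0.33, adjusted p = 0.0483), with quantile normalization (-0.24, adjusted p = 0.0431) and without F1 vehicle replicate 1 (-0.27, adjusted p = 0.0445), and in C3H with quantile normalization (-0.30, adjusted p = 0.0137), with only the groups compared (-0.24, adjusted p = 0.0204) and without B6 vehicle replicate 1 (-0.24, adjusted p = 0.0399) or F1 vehicle replicate 1 (-0.24, adjusted p = 0.0434). At 24 h Flt1 was lower in C3H (-0.37, adjusted p = 0.00452) and differed by 0.17 in B6 (95% interval -0.06 to 0.39) and -0.10 in F1 (-0.33 to 0.12). The B6 value was called without B6 vehicle replicate 1 (0.27, adjusted p = 0.0355), without the 3 arrays that stood apart (0.27, adjusted p = 0.0374) and with median centring (0.41, adjusted p = 0.00226).

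A_52_P307922, the single-cDNA probe of Flt1, followed another course, up at 2 h and down at 24 h in all 3 strains. Its B6 arrays read -0.78, -0.61 and -0.47 in vehicle, -0.09, -0.22 and -0.21 at 2 h, and -1.24, -1.26 and -1.20 at 24 h, with no overlap between conditions. It rose by 0.45 in B6, 0.42 in C3H and 0.33 in F1 at 2 h. At 24 h it fell by 0.61, 0.94 and 0.79 (adjusted p = 3.14e-05, 1.53e-07 and 1.28e-06). A_52_P520859, which lies 0.073 kb from the probe that stands for the gene, gave 24 h values of 0.21, -0.26 and -0.10, close to that probe's. A_52_P405145 gave 24 h values of -0.38 in B6 (adjusted p = 0.0941), -0.52 in C3H (adjusted p = 0.0236) and -0.65 in F1 (adjusted p = 0.00574), and none of its 2 h differences was called. FLT1 is known in a membrane form and in shorter soluble forms, and which form each probe reads was not examined.

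**Figure D2:**
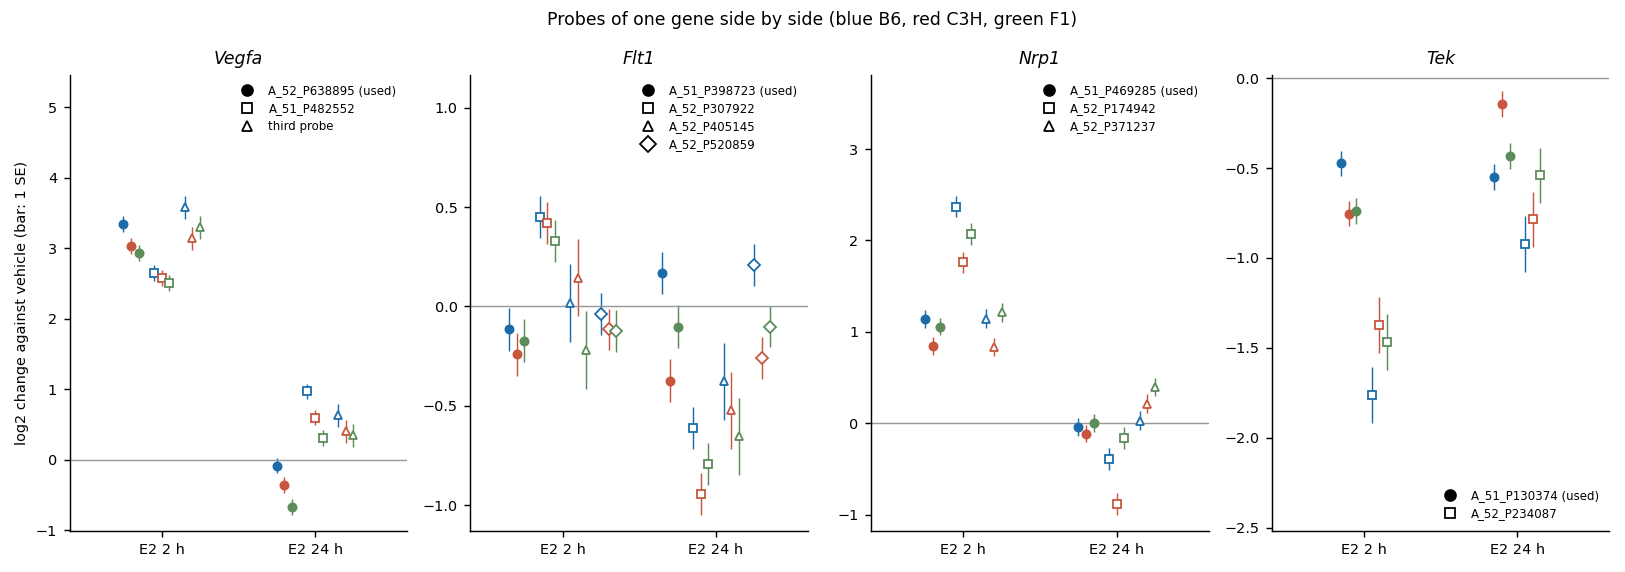
Log2 change against vehicle (vertical axis, 1 SE as bars) at 2 h and 24 h for each kept probe of Vegfa, Flt1, Nrp1 and Tek, with B6 blue, C3H red and F1 green. Filled circles are the probes that stand for the genes; at 24 h the other Vegfa probes lie above 0, while Flt1 A_52_P307922 lies below 0 after a rise at 2 h.

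In all 3 strains Angpt2 was called higher at 2 h and lower at 24 h. With the probes that stand for the genes, it was the only one of the 10 genes to do so throughout. The Flt1 probe A_52_P307922 also rose at 2 h and fell at 24 h in all 3 strains, and Angpt2 has only 1 probe. The probe that stands for Vegfa had such calls in C3H and F1 but not in B6. Angpt2 on the B6 arrays read 0.48, 0.37 and 0.36 in vehicle, 1.37, 1.26 and 1.34 at 2 h, and -0.84, -0.64 and -0.90 at 24 h. In C3H, Angpt2 read 0.51, 0.47 and 0.61, then 1.10, 1.16 and 1.03, then -0.26, -0.24 and -0.27. F1 gave Angpt2 readings of 0.63, 0.64 and 0.58, then 1.05, 1.09 and 1.23, then -0.41, -0.66 and -0.55. The 3 conditions did not overlap in any strain. Angpt2 rose 1.89-fold in B6, 1.48-fold in C3H and 1.42-fold in F1 at 2 h (log2 0.92, 0.57 and 0.51, SE 0.07, adjusted p = 6.9e-10, 7.39e-07 and 3.25e-06). At 24 h it was below vehicle 2.29-fold in B6, 1.72-fold in C3H and 2.23-fold in F1 (log2 -1.20, -0.78 and -1.16, adjusted p = 7.95e-12, 8.13e-09 and 1.77e-11). Its 9 group means had 5 gaps wider than 2 pooled SD, more than any other member: they separate B6, F1 and C3H at 24 h from each other, 24 h from vehicle, vehicle from 2 h, and B6 from F1 at 2 h.

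Tek, the angiopoietin receptor, fell at 2 h. Tek on the B6 arrays read -0.48, -0.34 and -0.48 in vehicle, -0.78, -1.01 and -0.92 at 2 h, and -0.96, -1.0 and -0.99 at 24 h. In C3H, Tek read -0.29, -0.25 and -0.12, then -0.97, -1.04 and -0.91, then -0.30, -0.40 and -0.40. F1 gave Tek readings of -0.40, -0.20 and -0.12, then -1.0, -1.02 and -0.91, then -0.68, -0.67 and -0.66. The 2 h arrays of the 3 strains shared 1 range, whereas at 24 h B6 stayed in that range, C3H was next to its vehicle and F1 lay between. Tek fell by 0.47 in B6, 0.75 in C3H and 0.74 in F1 at 2 h (SE 0.07, adjusted p = 7.43e-06, 1.05e-08 and 1.32e-08). At 24 h the differences were -0.55 in B6 (adjusted p = 6.85e-07), -0.14 in C3H (95% interval -0.29 to 0.00, adjusted p = 0.0779) and -0.43 in F1 (adjusted p = 1.75e-05). Its single-cDNA probe A_52_P234087 fell further at 2 h, by 1.76, 1.37 and 1.47, and at 24 h was lower in all 3 strains, including C3H (-0.92, -0.79 and -0.54 in B6, C3H and F1).

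Angpt1, the activating ligand of TEK, had the widest spread between arrays of a group. Angpt1 on the B6 arrays read -3.52, -3.95 and -3.97 in vehicle, -4.16, -3.96 and -4.26 at 2 h, and -4.34, -4.92 and -4.16 at 24 h. In C3H, Angpt1 read -4.42, -4.96 and -4.69, then -5.23, -5.21 and -5.49, then -5.36, -4.85 and -5.10. F1 gave Angpt1 readings of -4.47, -4.24 and -4.28, then -4.33, -4.64 and -4.83, then -4.68, -5.01 and -4.63. All 6 E2 means were below the vehicle mean of their strain. At 2 h only C3H was called (-0.62, SE 0.19, adjusted p = 0.0083; B6 -0.31, adjusted p = 0.174; F1 -0.27, adjusted p = 0.242), and that call ended without C3H vehicle replicate 1 (-0.48, adjusted p = 0.0556). At 24 h B6 (-0.66, adjusted p = 0.00444) and F1 (-0.45, adjusted p = 0.0445) were called and C3H (-0.41, adjusted p = 0.0643) was not. The F1 call ended in 8 of 27 fits that left out 1 array, with values from -0.52 to -0.33 and adjusted p up to 0.178. With slide as a block the B6 value at 24 h was -0.87 (adjusted p = 0.0503).

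**Figure D3:**
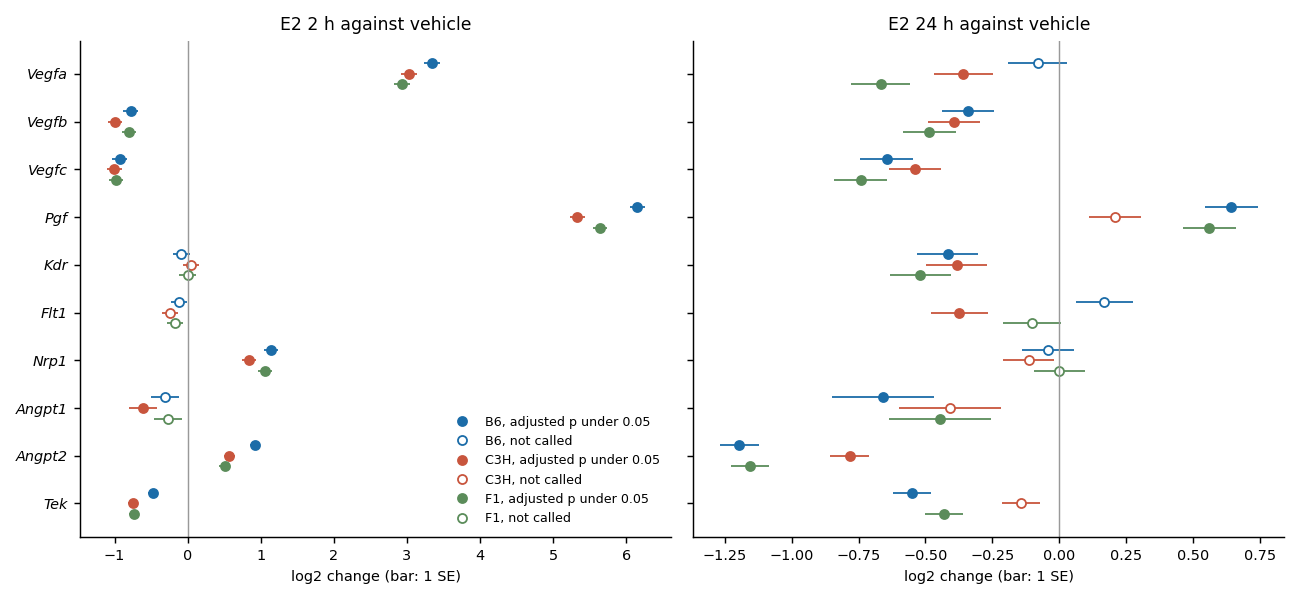
Log2 change against vehicle (horizontal axis, 1 SE as bars) of the 10 genes at 2 h and 24 h, with B6 blue, C3H red and F1 green and different ranges in the panels. Filled points are called at an adjusted p under 0.05; Pgf and Vegfa lie far to the right at 2 h, and at 24 h 6 to 7 members per strain are filled on the left of 0.

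At 24 h most of the calls were below vehicle. B6 had 1 of the 10 genes higher and 6 lower, C3H had 0 and 6, and F1 had 1 and 7. The shares of all genes were 30.7% higher and 37.3% lower for B6, 27% higher and 40.2% lower for C3H, and 31.6% higher and 36.9% lower for F1. Vegfb, Vegfc, Kdr and Angpt2 were lower in all 3 strains, 4 of 10 members against 29.2% of all genes, and 0 members were higher in all 3 against 22.9%. The median difference over the members was -0.38, -0.38 and -0.47, and over all genes -0.06, -0.16 and -0.04. Between 2 h and 24 h 3 members rose and 5 fell in each strain, where 35.8%, 34.7% and 38.4% of all genes rose and 32.8%, 35.7% and 30.2% fell in B6, C3H and F1. Pgf, Vegfa, Angpt2, Nrp1 and Kdr fell over this interval in all 3 strains, and Vegfb and Vegfc rose.

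The smaller 24 h differences depend on how the arrays are scaled. Centring each array on its median instead of its 75th percentile moved the median of all genes at 24 h to 0.18 in B6, 0.03 in C3H and 0.17 in F1, and at 2 h to -0.00, 0.03 and 0.04. With it, B6 had 2 members higher and 3 lower at 24 h, C3H had 1 and 2, and F1 had 1 and 6. All genes split at 24 h into 9215 higher and 5937 lower for B6 (6721 and 8149 at the 75th percentile), 7709 and 6353 for C3H (5907 and 8796), and 9097 and 6076 for F1 (6908 and 8072), and at 2 h into 5717 and 5986 (4967 and 7438), 6666 and 5902 (5222 and 8119), and 6357 and 5945 (4989 and 8079). The 24 h calls of Vegfb and Kdr ended in B6 (-0.10 and -0.18) and C3H (-0.20 and -0.19), Vegfa and Flt1 in C3H (-0.17 and -0.18), and Angpt1 in B6 (-0.42, adjusted p = 0.0503) and F1 (-0.24, adjusted p = 0.262). Gained calls were Pgf in C3H (0.40, adjusted p = 0.00158) and Flt1 in B6 (0.41, adjusted p = 0.00226), both higher. With normexp background correction 3, 2 and 4 members were called at 24 h. Angpt2 and Vegfc were called lower at 24 h in all 3 strains under both alternatives, and the 2 h directions of the 7 members named above held in both.

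Arrays were printed 4 to a slide, and 4 slides held both groups of a comparison within a strain. Slide 3 held B6 E2 24 h with C3H vehicle, and slide 5 held C3H E2 24 h with F1 vehicle. Within slide 1 the 2 h differences of B6 were 6.17 for Pgf, 3.38 for Vegfa, 1.15 for Nrp1, 0.97 for Angpt2, -0.79 for Vegfb, -0.68 for Vegfc and -0.35 for Tek, and within slide 6 those of F1 were 5.64, 3.00, 0.90, 0.54, -0.84, -0.96 and -0.85 in the same order. All had the direction of the pooled value; Tek within slide 1 was not called (adjusted p = 0.129). Within slide 2 the fall from 2 h to 24 h in B6 was -5.58 for Pgf and -2.04 for Angpt2, and within slide 4 that of C3H was -5.02 and -1.35. On slide 1 the only B6 E2 2 h array is replicate 1, and on slide 6 the only F1 vehicle array is replicate 3. On slide 4 the only C3H E2 24 h array is replicate 1. Slides 1 and 4 also hold all 3 arrays that stood apart, C3H E2 24 h replicate 1 among them. The arrays within these slides are part of the pooled values too. For C3H at 2 h and for C3H and F1 at 24 h against vehicle, no slide links the groups and slide and group cannot be told apart.

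With the probes that stand for the genes, 2 of 10 members differed in vehicle between C3H and B6. Between F1 and B6 there were 0, and between F1 and C3H 0. The shares of all genes were 24.3%, 12.6% and 14.3%, and no count of members was above them. At an unadjusted p under 0.05, limma gave 4, 4 and 0 members. Angpt1 was lower in C3H than in B6 (-0.88, SE 0.19, adjusted p = 0.00156), with arrays that did not overlap, and Tek was higher (0.21, SE 0.07, adjusted p = 0.0365). With slide as a block these were -1.40 (adjusted p = 0.0648) and 0.40 (adjusted p = 0.122). The Tek call ended without B6 vehicle replicate 1 or 3 (0.18 and 0.19) or C3H vehicle replicate 2 or 3 (0.22 and 0.16), and without the 3 arrays that stood apart it was 0.18 (adjusted p = 0.111). The second Angpt1 probe gave -0.60 (adjusted p = 0.053). The second Tek probe, A_52_P234087, had vehicle means of -2.35 in B6 and -2.38 in C3H. Among the probes that do not stand for a gene, Nrp1 A_52_P174942 differed between all 3 strains in vehicle, as given above, and Nrp1 A_52_P371237 between C3H and B6.

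The response to E2 was compared between strains as the difference of log2 changes. At 2 h 1 of 10 members differed between C3H and B6 and 0 in both comparisons with F1 (4, 4 and 1 at an unadjusted p under 0.05 for C3H against B6, F1 against B6 and F1 against C3H, by limma), where 2.26%, 0.64% and 0.224% of all genes were called. Pgf rose less in C3H than in B6, (difference of log2 changes -0.82, 95% interval -1.11 to -0.53, adjusted p = 0.00166), and it did so in every fit that left out 1 array. The F1 difference from B6 was -0.51 (95% interval -0.80 to -0.22, adjusted p = 0.0978). Vegfa differed by -0.31 (-0.64 to 0.02) in C3H and -0.41 (-0.74 to -0.09, adjusted p = 0.282) in F1 against B6, and neither was called.

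At 24 h 4 of 10 members differed between C3H and B6, 0 between F1 and B6 and 1 between F1 and C3H (4, 1 and 3 at an unadjusted p under 0.05), against 19%, 2.04% and 3.79% of all genes. The 24 h differences of Tek (by 0.41, 95% interval 0.20 to 0.62, adjusted p = 0.00777) and Angpt2 (by 0.41, 0.20 to 0.62, adjusted p = 0.00777) from vehicle were less negative in C3H than in B6. The Tek value is that of the probe that stands for the gene. Its other probe, A_52_P234087, fell by similar amounts, from a mean of -2.35 to -3.27 in B6 and from -2.38 to -3.16 in C3H. Flt1 differed by -0.54 (-0.86 to -0.23, adjusted p = 0.0169) and Pgf by -0.43 (-0.72 to -0.15, adjusted p = 0.0324). The Flt1 call ended without B6 E2 24 h replicate 3 (-0.46, adjusted p = 0.0521) or C3H E2 24 h replicate 2 (-0.48, adjusted p = 0.0531), and the Pgf call in 8 of 27 fits that left out 1 array, with values from -0.53 to -0.35. Angpt2 fell further in F1 than in C3H (-0.37, -0.58 to -0.16, adjusted p = 0.0449), a call that ended in 17 of 27 such fits (-0.44 to -0.31, adjusted p up to 0.103). With normexp background correction 0 members were called in any of these strain comparisons of the response. For the 6 called differences of the response no slide links the groups, and slide and strain cannot be told apart. The 2 h response of F1 against B6 can be fitted with slide as a block, which gave -0.53 for Pgf (adjusted p = 0.365) and -0.43 for Angpt2 (adjusted p = 0.329), not called. The comparisons of a strain share its vehicle arrays.

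**Figure D4:**
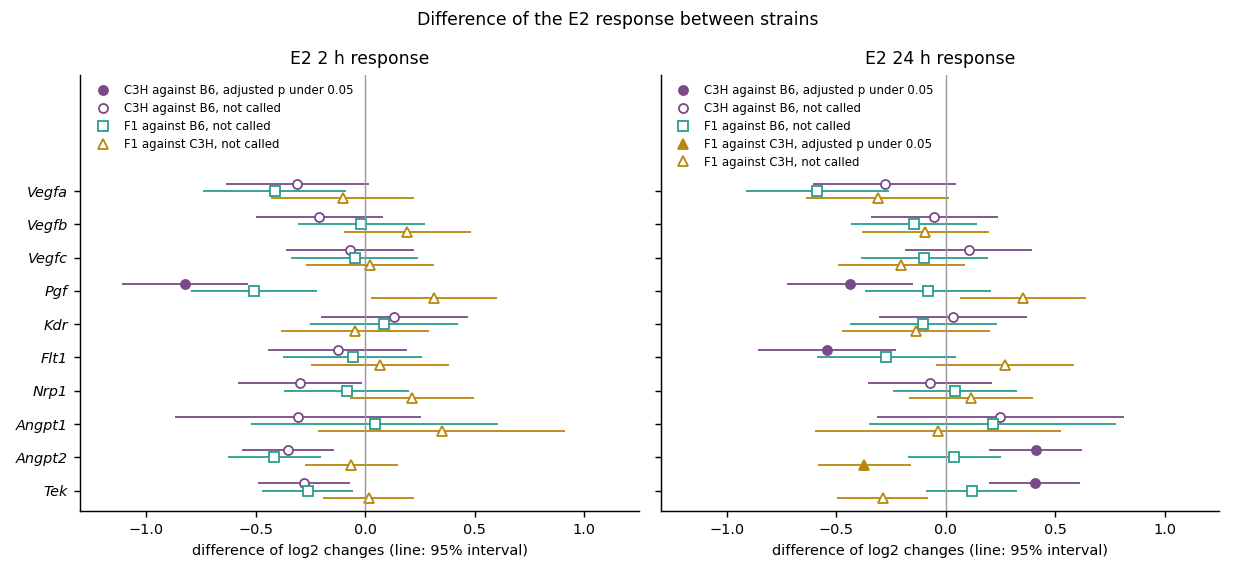
Difference of the log2 response to E2 between strains (horizontal axis, 95% interval as lines) for the 10 genes at 2 h and 24 h. Filled symbols are called at an adjusted p under 0.05; Pgf is the only filled gene at 2 h, and Pgf, Flt1, Angpt2 and Tek are filled at 24 h for C3H against B6.

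Whole uterus mixes cell types, and in such samples fewer cells of a type and less RNA per cell cannot be told apart. Counts for this and the later lists are of genes called in the same direction in all 3 strains. Over all genes those shares were 17.8% higher and 28.2% lower at 2 h, and 22.9% and 29.2% at 24 h. Of 20 endothelial markers, 3 were higher and 8 lower in all 3 strains at 2 h, and 5 higher and 11 lower at 24 h. Their summed level, in multiples of the array's 75th percentile, ran from 95.9 to 108 over the 9 vehicle arrays, 66.3 to 78.0 at 2 h and 68.5 to 77.2 at 24 h. Cldn5, a tight junction protein of endothelium, fell by 1.53, 1.41 and 1.73 at 2 h in B6, C3H and F1, while Eng, a co-receptor of endothelium, rose by 1.19, 1.18 and 1.19. Of 8 measured pericyte markers, 1 was higher and 4 lower at 2 h and 0 and 3 at 24 h, and their sum was 61.9 to 70.5 in vehicle, 30.9 to 37.0 at 2 h and 33.7 to 43.7 at 24 h. Kdr, Tek, Flt1 and Angpt2 are made mainly by endothelium, and the part of these marker shifts in their values was not tested.

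The other marker lists moved as well. Of 6 measured lymphatic markers, 1 was higher at 2 h and 5 were lower at 24 h, with a sum of 4.88 to 6.91 in vehicle, 5.53 to 7.25 at 2 h and 2.68 to 4.12 at 24 h. Those lower at 24 h include Prox1, the regulator of lymphatic identity (-1.43, -0.93 and -1.38), and Flt4, the VEGF-C receptor (-0.75, -0.26 and -0.54). Of 9 stromal markers, 0 were higher and 8 lower at 2 h and 4 and 4 at 24 h, with a sum of 423 to 517 in vehicle, 292 to 361 at 2 h and 507 to 636 at 24 h. Of 12 epithelial markers, 1 was higher and 5 lower at 2 h, and 9 higher and 2 lower at 24 h, with a sum of 121 to 149.7 in vehicle, 89.1 to 126 at 2 h and 228 to 319 at 24 h. Smooth muscle markers gave 2 higher and 1 lower of 9 at 2 h and 5 and 0 at 24 h, with a sum of 495 to 676 in vehicle, 517 to 673 at 2 h and 733 to 879 at 24 h. Leukocyte markers gave 0 and 0 of 13 at 2 h and 1 and 1 at 24 h, and their sum ranged from 70.5 to 182 in vehicle, 69.0 to 182 at 2 h and 61.1 to 108 at 24 h. Red cell genes gave 2 higher and 0 lower of 4 at 2 h and 3 and 0 at 24 h, with a sum of 33.3 to 63.5 in vehicle, 49.0 to 87.2 at 2 h and 70.2 to 112 at 24 h. The part of these shifts in the members' values was not tested.

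Further family members and neuropilin ligands, 14 measured of 15 listed, gave 3 higher and 5 lower in all 3 strains at 2 h and 2 and 7 at 24 h. Their median differences were -0.29, -0.29 and -0.19 at 2 h in B6, C3H and F1 and -0.51, -0.25 and -0.46 at 24 h. For this and the later lists, the medians of all genes were -0.09, -0.13 and -0.12 at 2 h and -0.06, -0.16 and -0.04 at 24 h. Nrp2, the co-receptor related to Nrp1, rose at 2 h (1.11, 0.92 and 0.89) and fell at 24 h (-0.76, -0.89 and -0.83). Vegfd, the ligand related to Vegfc, fell at 2 h (-1.03, -0.72 and -0.81). The semaphorins, neuropilin ligands, split at 2 h: Sema3f rose (1.20, 1.28 and 1.27) and Sema3c fell (-1.31, -1.98 and -1.72). At 24 h Angpt4, a further angiopoietin, was lower (-1.49, -1.18 and -1.26), as were Sema3c (-0.77, -1.01 and -1.03) and Sema3d (-0.80, -0.47 and -0.56).

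Genes of signalling below KDR and TEK, 22 of 22 measured, gave 7 higher and 4 lower at 2 h and 5 and 7 at 24 h, with medians from -0.18 to 0.08 over strains and times. Shb, an adaptor that binds KDR (1.37, 1.39 and 1.52), Nos3, the endothelial nitric oxide synthase (1.15, 1.53 and 1.44), and the kinase gene Akt1 (1.15, 1.03 and 1.22) rose at 2 h in B6, C3H and F1. Pik3r1, a regulatory subunit of PI3-kinase, fell at 2 h (-1.36, -1.82 and -1.81) and 24 h (-0.82, -0.83 and -1.07). At 24 h Prkca, a protein kinase C, was higher (1.11, 1.11 and 1.11) and the signalling genes Plcg1 (-1.20, -0.76 and -0.92) and Gab1 (-1.28, -0.61 and -0.91) were lower.

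Of 19 genes listed as induced by VEGF or marking tip cells at the front of a vessel sprout, 11 were higher and 4 lower in all 3 strains at 2 h, and 2 higher and 6 lower at 24 h. The list's median was 1.05, 1.02 and 0.93 at 2 h and -0.15, -0.20 and -0.34 at 24 h. The early transcription factor genes Egr3 (4.63, 4.11 and 3.79), Nr4a1 (4.05, 3.62 and 3.42) and Nr4a2 (2.76, 2.78 and 2.48) rose most, and many stimuli other than VEGF are known to induce them. Cxcr4, a chemokine receptor of tip cells, fell at 2 h (-2.46, -2.34 and -2.45) and 24 h (-1.73, -0.98 and -1.24), and Jag1, a Notch ligand, was lower at 24 h (-1.08, -1.22 and -1.20), as was Egr3 (-0.82, -1.63 and -1.33). Plvap, the protein of endothelial diaphragms, was higher at 24 h (1.72, 1.24 and 1.68); it also stands on the endothelial list.

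Of 27 hypoxia genes, 11 were higher and 4 lower at 2 h and 9 and 9 at 24 h. P4ha2, a collagen prolyl hydroxylase (4.29, 3.96 and 3.59), Hk2, a hexokinase (1.76, 2.00 and 2.03), and Adm, which codes for the vasodilator adrenomedullin (1.86, 1.75 and 1.85), rose at 2 h, and Ankrd37 fell (-1.97, -2.05 and -2.21). At 24 h the glycolytic genes Ldha (1.86, 1.44 and 1.57) and Pgk1 (1.64, 1.45 and 1.62) and the prolyl hydroxylase gene Egln3 (1.65, 1.38 and 1.74) were higher, and Ndrg1 was lower (-2.01, -1.24 and -1.62). The list's median lay between 0.16 and 0.19 at 2 h and between -0.06 and 0.12 at 24 h.

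Inhibitors of vessel growth, 15 measured of 17, gave 5 higher and 4 lower at 2 h and 3 and 6 at 24 h. At 2 h Spry4, a feedback inhibitor of receptor tyrosine kinases (3.00, 4.05 and 3.81), and the protease gene Adamts8 (1.54, 1.45 and 1.49) rose, and Vash2 (-1.40, -1.54 and -1.46) and Spry1 (-0.97, -1.76 and -1.36) fell. Vash2 is known to promote rather than inhibit vessel growth. At 24 h the thrombospondin genes Thbs1 (-1.82, -1.83 and -1.07) and Thbs2 (-1.54, -1.15 and -1.05), the metalloprotease inhibitor gene Timp3 (-1.62, -1.61 and -1.42) and Ism1 (-1.18, -1.42 and -1.47) were lower.

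**Figure D5:**
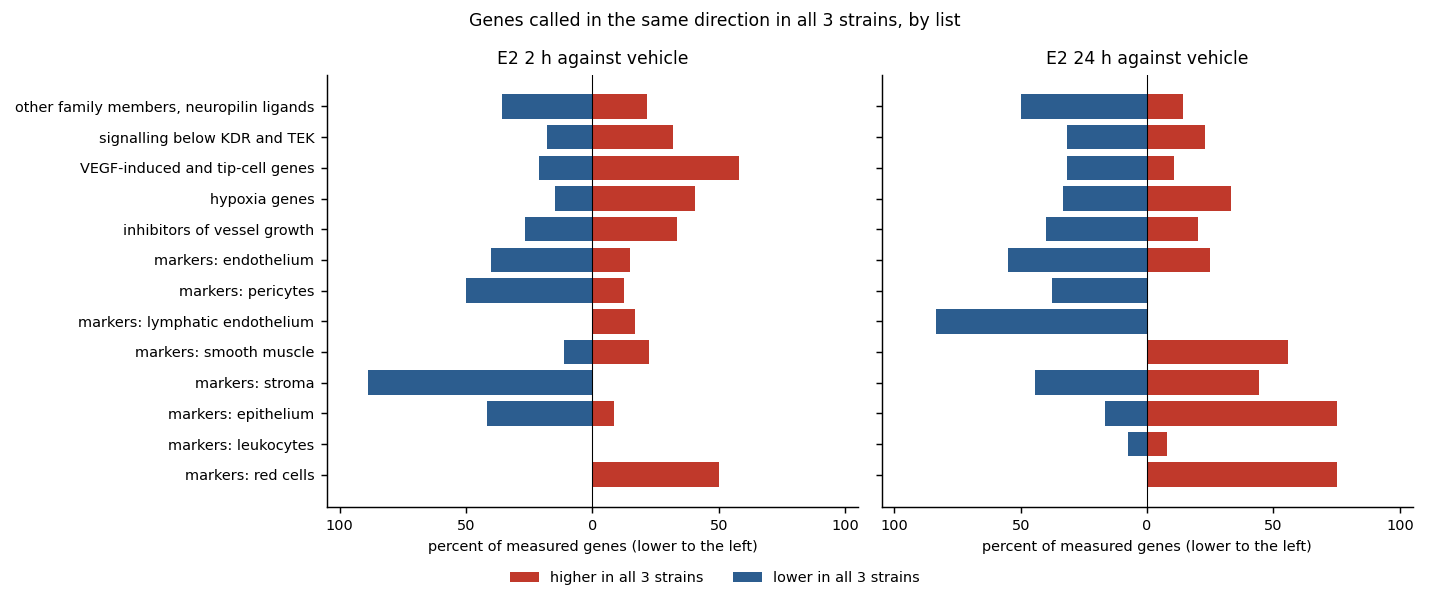
Percent of each list's measured genes (horizontal axis) called higher (red, to the right) or lower (blue, to the left) in all 3 strains at 2 h and at 24 h. VEGF-induced genes lean to the right at 2 h, where 11 of 19 were higher, and endothelial, pericyte and lymphatic markers lean to the left at 24 h; over all genes the shares were 17.8% and 28.2% at 2 h and 22.9% and 29.2% at 24 h.

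The genes whose 9 group means followed each member most closely were found by Pearson r among 9834 genes whose group means span at least 1 log2 unit; with 9 means of the same arrays, high values are common, and they are given as a description. Pgf was followed by Ptges (0.998), which codes for a prostaglandin E synthase, Nol4l and Atl2, and Vegfa by Prok2 (0.998), a secreted prokineticin, Dennd2a and Ss18. Nrp1 was nearest to Shisal2b (0.997), Csrnp1 and Unc45a, Angpt2 to Fnbp4 (0.997), Doc2b and Zbtb39, and Tek to Lrrn1 (0.986), 3830408C21Rik and Slc17a5. Vegfb was nearest to A630012P03Rik (0.997), Zfp40 and L3hypdh, and Vegfc to Irf2 (0.992) and Rnf182. Kdr was nearest to Frmd6 (0.982), Siglech and Cnot4, Angpt1 to Enpp5 (0.980), Pgm5 and Abcc2, and Flt1, with the lowest likeness, to Dlec1 (0.910), Krtap8-1 and Ccnd1.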

How the data were processed

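Whole-uterus RNA (9 groups of strain and treatment, 3 arrays each) was measured on 27 Agilent 1-colour whole mouse genome arrays. Per the labels' protocols, 500 ng of total RNA was labelled with Cy3, and 1.65 µg of cRNA was hybridised for 17 h. The deposited values are linear intensity per spot. Per the file headers, Feature Extraction 9.5.3.1 subtracted background, corrected spatial and multiplicative trends and set low values to surrogates, with no scaling between arrays; the submitters' processing notes name version 9.5. The deposited value table held the same processed intensity for 27 of 27 arrays. Probe coordinates are on mm7, promoter windows are on GRCm38.p6, and protein sequences were not used here.

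The log2 processed intensity minus the array's 75th percentile over unflagged, non-control spots was the measure; spots of a probe were averaged (245 probes have 10 spots). Background correction of this kind widens the spread of dim probes, and the choice of percentile shifts all differences of an array. A probe was kept (32901 of 41174) where the scanner called it well above background throughout 1 or more groups, and the brightest kept probe stands for its gene (7494 of 21861 genes had several). Names came from accessions (23075 probes), symbols (6587), synonyms (3072) or the file alone (8440). One model of 9 group means was fitted across all genes with limma 3.58.1, with 18 degrees of freedom among arrays and 1.95 from the prior (R 4.3.3; the data.table package, version 1.17.8), and 18 contrasts were adjusted by Benjamini-Hochberg; plots were drawn with matplotlib 3.10.9, and tables made with pandas 2.3.3 and numpy 2.4.6 (Python 3.11.15). Group sizes of 3 arrays limit the precision.

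Alternatives were normexp correction (offset 50), median, quantile and no scaling, no filter, the mean of a gene's probes, each probe alone, slide as fixed or random block, the replicate number as a block, only the groups compared, and leaving out each array. Leaving out the 3 arrays that stand apart was chosen after seeing the data. All 10 members are named. From each family or process list the text names up to 4 genes per time, called with the same sign in all 3 strains, by the largest mean change, and per member the 3 genes of highest likeness (a gene by likeness and the sequence of a Vegfa probe are not reported here); of the marker lists it names defining genes only. Members and lists were chosen with earlier results of these data known. Promoter windows (250 bases) were searched on both strands; 8 of 10 members had an entry. Replicate numbers were not used to pair the samples, by a rule that needed every pair with the same number over r 0.1. Over 108 pairs with the same number, deviations from the group means had a median r of 0.01, and 23 were over 0.1. Of 216 pairs with different numbers, 24 were over 0.1 (median r 0.0024). Paired samples can also fail such a rule, so it cannot decide whether the numbers pair the samples.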

Additional observations from a re-analysis of the deposited data

Results flagged for a closer look

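These 6 differences of the E2 response between strains passed the test of the difference itself (limma, adjusted p under 0.05 over all genes). At 2 h the response of Pgf was smaller in C3H than in B6 by a log2 difference of -0.82 (adjusted p = 0.00166), with Pgf higher than vehicle in 3 of 3 arrays of both strains. At 24 h C3H differed from B6 in Pgf by -0.43 (adjusted p = 0.0324), with 3 of 3 E2 arrays above vehicle in both strains, and in Flt1 by -0.54 (adjusted p = 0.0169), with 3 of 3 C3H arrays below vehicle and overlapping arrays in B6. The 24 h differences of Tek (by 0.41) and Angpt2 (by 0.41) were less negative in C3H than in B6 (adjusted p = 0.00777 and 0.00777), with all 3 arrays below vehicle in both strains. The other Tek probe, A_52_P234087, fell by similar amounts, from a mean of -2.35 to -3.27 in B6 and from -2.38 to -3.16 in C3H. Angpt2 differed between F1 and C3H at 24 h by -0.37 (adjusted p = 0.0449). None was called with normexp background correction.

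The Nrp1 probe A_52_P174942 separated the strains in vehicle (C3H against B6 -1.59, adjusted p = 1.28e-09), which the probe that stands for the gene did not (-0.07). The Vegfa probes A_52_P638895 and A_51_P482552 differed in sign at 24 h in C3H (-0.36 and 0.60) and F1 (-0.67 and 0.31).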

How the results depend on the processing

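In 6950 comparisons of a member's difference with its value under an alternative, 6592 kept direction and side of the threshold, 131 lost the call, 53 gained one, 7 turned sign with a call on at least 1 side, and 167 turned sign without a call on either side. The 2 h calls of Pgf, Vegfa, Nrp1, Angpt2, Vegfb and Vegfc held in all 3 strains under every alternative that could be run. Tek did so except within slide 1. For C3H at 2 h, slide as a fixed block and a fit within a slide could not be run. Counts of members called, of 10, changed by over 1.5 times as follows, and the cause was not tested. With normexp correction they were 3 in B6, 2 in C3H and 4 in F1 at 24 h against vehicle, 5 in B6 between 2 h and 24 h, and 0 for C3H against B6 in vehicle and in the response at 2 h and at 24 h. With median centring they were 3 for C3H at 24 h and 2 for F1 against B6 in vehicle. Without scaling they were 1 for C3H and 1 for F1 against B6 in vehicle and 1 for C3H against B6 in the 24 h response. C3H against B6 in vehicle gave 1 without the filter, 1 with only the groups compared, 1 without the 3 arrays that stand apart and 0 with slide as a fixed block. With the mean of all kept probes the counts were 1 for F1 against B6 and 1 for F1 against C3H in vehicle, 2 for C3H against B6 in the 2 h response and 2 for F1 against C3H in the 24 h response. That last count was 0 with normexp, median centring, quantile normalization, no scaling, no filter, each probe alone and only the groups compared. As the numbers were not used to pair the samples, the replicate block is given only here. It left 0 members in that comparison (Angpt2 -0.37, adjusted p = 0.0574) and no other count moved by over 1.5 times.

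Leaving out 1 array at a time gave counts at 2 h against vehicle of 7 to 7 in B6, 7 to 9 in C3H and 7 to 8 in F1, at 24 h of 7 to 8, 6 to 8 and 7 to 8, and between the times of 5 to 8, 8 to 8 and 7 to 8. In vehicle they were 1 to 2 for C3H against B6, 0 to 2 for F1 against B6 and 0 to 0 for F1 against C3H; in the 2 h response 1 to 2, 0 to 1 and 0 to 0, and in the 24 h response 2 to 4, 0 to 1 and 0 to 1.

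A value called before or after turned sign in 7 cases. With normexp correction Pgf in F1 at 24 h was -0.0498 (adjusted p = 0.908). With the mean of all kept probes, Vegfa at 24 h was 0.51 in B6 (adjusted p = 0.000524) and 0.22 in C3H (adjusted p = 0.101), Flt1 between 2 h and 24 h was -0.23 in B6 (adjusted p = 0.0199) and -0.37 in F1 (adjusted p = 0.000656), Tek between the times was 0.38 in B6 (adjusted p = 0.00119), and Nrp1 in vehicle was 0.24 for F1 against C3H (adjusted p = 0.0112). A random slide block, with a correlation of 0.0068, changed no count.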
